A study of Mus musculus with 10 samples.

Results

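The comparison set the 5 remnant kidneys with the highest level of Havcr1 against the 5 with the lowest, out of 10 in all. Each kidney came from a different FVB/N mouse, 20 weeks old, and the renal cortex of each was hybridised to 1 array. All 10 mice had lost 2/3 of a kidney by ablation and then the other kidney, and all received a drug for 6 weeks, begun when 6 weeks had passed since the first operation and 4 weeks since the second. In 5 mice the drug was losartan (500 mg/l), a blocker of the type 1 angiotensin II receptor, and in the other 5 it was aliskiren (50 mg/kg), an inhibitor of renin. Untreated and unoperated mice were not analysed here. The sides were chosen by the measured Havcr1 level: the mice were ranked by the Havcr1 probe set with the higher mean of 2, ranks 1 to 5 formed the high side and ranks 6 to 10 the low side, and genes were compared between the sides with drug as a term in the fit.

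Havcr1 encodes kidney injury molecule 1 (KIM-1), a membrane protein that healthy proximal tubule cells hardly make and that injured ones place on their surface, where it takes part in the uptake of dying cells. When renal mass is lost the surviving nephrons enlarge and filter more, and over weeks some of their tubules dilate and dedifferentiate while leukocytes and matrix collect between them.

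All levels are RMA log2 values, on which a difference of 1 is a 2-fold change. On the high side Havcr1 stood at 10.76 in losartan mouse 3, 9.37 in aliskiren mouse 1, 8.69 in losartan mouse 2, 8.53 in aliskiren mouse 2 and 7.82 in aliskiren mouse 5. On the low side it stood at 7.23 in losartan mouse 1, 6.57 in aliskiren mouse 4, 6.22 in losartan mouse 4, 6.08 in aliskiren mouse 3 and 5.41 in losartan mouse 5. The step at the boundary, between aliskiren mouse 5 and losartan mouse 1, was no wider than the steps next to it. The second Havcr1 probe set put the same 5 mice above the other 5, the closest pair lying at 6.23 and 6.14. Each drug was on both sides, with 2 losartan and 3 aliskiren mice on the high side and 3 and 2 on the low side. Since the mice were ordered by a gene measured on the same arrays, a difference of another gene is an association with Havcr1 among these 10 mice and no effect of a condition, and Havcr1 itself was not tested. With 1 array per mouse, p-values measure the spread between mice.

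The other named injury markers followed Havcr1 in part and are given as values; both also count among the tubular injury genes below. Lcn2, which encodes the iron-carrier-binding lipocalin NGAL, had 10.20, 8.55, 8.25, 8.07 and 7.03 in the mice of rank 1 to 5 and 6.89, 6.40, 5.69, 7.27 and 4.96 in those of rank 6 to 10. Only aliskiren mice 5 and 3 crossed between the sides. Krt19, a keratin of ducts and of dedifferentiated tubule, had 9.07, 6.75, 7.06, 6.65 and 5.70 against 6.32, 5.58, 6.90, 5.88 and 6.71. The sides overlapped widely for Krt19, and losartan mouse 3 was far above all the others. The 2 tested genes of urothelium, the keratin-rich lining of the renal pelvis, had a list mean of 7.55 in losartan mouse 3 and of 6.06 to 6.54 in the other 9 mice; their part in the Krt19 values was not tested.

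Losartan mouse 3 stood apart before any comparison. It held the highest value of the 10 mice in 29.2% of the 11485 genes tested and the lowest in 24.9%. Adipoq, the fat cell hormone adiponectin, had 12.96 in losartan mouse 3, 9.90 in aliskiren mouse 3 and 7.35 in aliskiren mouse 2, and between 3.17 and 3.96 in the other 7 mice. Ucp1, the uncoupling protein of brown fat, had 9.31, 8.87 and 5.69 in these 3 mice and at most 3.88 elsewhere. Fat transcripts were thus highest in the mice of rank 1 and rank 9, on opposite sides. The 9 tested fat genes had a list mean of 12.37 in losartan mouse 3 and 10.61 in aliskiren mouse 3, and of 8.11 to 9.16 in the others, so the main counts are also given without losartan mouse 3. Differences between the 3' and 5' control probes of Gapdh, a sign of RNA quality, ran from 0.32 to 0.47 on the high side and from 0.28 to 0.55 on the low side.

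No gene passed the test between the sides. Of 11485 genes, 0 were higher and 0 lower on the high side at a limma adjusted p under 0.05, the lowest adjusted p was 0.307, and without losartan mouse 3 it was 0.124 with 0 genes called. Without adjustment, p was under 0.05 for 1169 genes with a higher value on the high side (10.2% of those tested) and for 339 with a lower one (2.95%), and without losartan mouse 3 the total fell from 1508 to 755. In 184 genes (1.60%) every high mouse lay above every low mouse, and in 45 genes (0.392%) every high mouse lay below. Differences of 2-fold or more were nearly all upward, with 117 genes at least 1 log2 unit higher and 2 at least 1 lower, against 39 and 2 without losartan mouse 3. The 95% confidence interval of 9774 genes left room for less than a 1.5-fold difference either way.

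The Havcr1 level used as a slope in place of the sides gave another count. With drug as a term, 1258 genes (11.0%) rose with Havcr1 and 334 (2.91%) fell at a limma adjusted p under 0.05. Without losartan mouse 3 these were 22 (0.192%) and 0; all 22 were among the 1258, and all 1592 slopes kept their sign. Without the mice of rank 1 and 2 only 1 gene (0.00871%), Fgg, passed. With the mean of the fat list as a further covariate the counts were 407 and 39. The fit of the Havcr1 level with all 10 mice and no fat covariate is called the slope fit below. The 22 genes included the fibrinogen gene Fgg, the macrophage genes Cd68 and Cd14, the chemokine genes Ccl5 and Ccl8, the matrix gene Ltbp2 and the complement regulator gene Cfi.

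**Figure D1:**
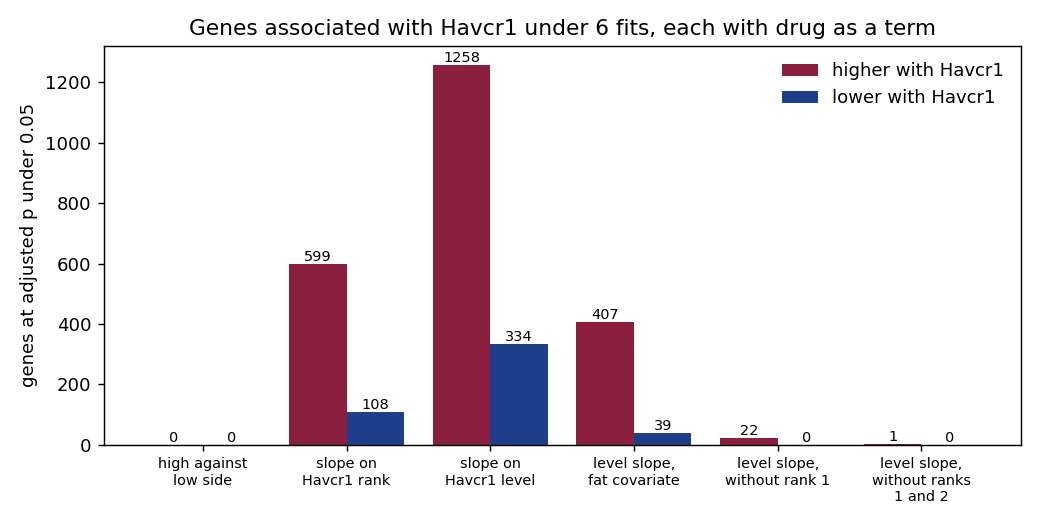
Bars give the number of genes at a limma adjusted p under 0.05 (vertical axis) in 6 fits with drug as a term (horizontal axis), higher or lower with Havcr1. The split into sides called 0 genes, the slope on the Havcr1 level called 1258 and 334, and leaving out the mouse of rank 1 left 22 and 0.

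Fibrinogen genes were the group that held Fgg, the gene called in all 3 level slopes. Fibrinogen is the clotting protein of plasma, built from the chains that Fga, Fgb and Fgg encode, and injured tubule cells are among the few cells outside the liver that make it. Fgg had 11.53, 9.53, 9.83, 9.55 and 9.16 in the mice of rank 1 to 5 and 8.54, 7.99, 8.39, 7.88 and 7.63 in those of rank 6 to 10. Every high mouse lay above every low mouse, and the gap between aliskiren mouse 5 and losartan mouse 1 was 0.62. The difference was 1.98 (SE 0.34), or 3.96-fold, and 1.54 without losartan mouse 3, with limma adjusted p of 0.307 and 0.125. In the slope fit Fgg gained 0.68 (SE 0.05) per log2 unit of Havcr1 (limma adjusted p = 0.000599), and 0.60 (SE 0.06) without losartan mouse 3 (0.0286). Without aliskiren mouse 1 as well it gained 0.67 (SE 0.06, limma adjusted p = 0.0195).

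Fga, the alpha chain gene, had 11.11, 9.49, 9.75, 9.24 and 9.14 against 8.91, 8.48, 9.25, 8.31 and 8.04. Only losartan mouse 4 reached into the high side. Fgb, the beta chain gene, lay below the level filter on average and was not tested; it had 8.22, 5.53, 5.77, 6.01 and 5.16 against 5.42, 3.93, 4.58, 4.48 and 4.57. All 3 chains were highest in losartan mouse 3, and aliskiren mouse 5 had the lowest value of the high side for each.

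The 3 chain genes are neighbours on mouse chromosome 3. The 250 bases before their starts are shown with motifs known from interleukin-6 signalling marked. The sequences are from RefSeq (GRCm38.p6), 5′ to 3′ on the strand of the gene, for Fgg at chr3:83007474-83007723 (plus strand), Fga at chr3:83025903-83026152 (plus strand) and Fgb at chr3:83049864-83050113 (minus strand). Capitals mark CTGGGA, the core of the interleukin-6 response element, and TTCNNNGAA, the STAT dimer motif, searched on both strands.
Fgg: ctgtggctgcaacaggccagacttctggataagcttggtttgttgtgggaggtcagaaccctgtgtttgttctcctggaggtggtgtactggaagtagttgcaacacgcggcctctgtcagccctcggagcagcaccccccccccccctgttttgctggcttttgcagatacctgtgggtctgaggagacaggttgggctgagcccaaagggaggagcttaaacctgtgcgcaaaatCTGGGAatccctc
Fga: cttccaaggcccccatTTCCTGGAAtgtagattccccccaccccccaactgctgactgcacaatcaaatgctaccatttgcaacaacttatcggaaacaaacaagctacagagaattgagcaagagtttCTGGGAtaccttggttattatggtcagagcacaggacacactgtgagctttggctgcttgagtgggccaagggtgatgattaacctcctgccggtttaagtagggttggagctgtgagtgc
Fgb: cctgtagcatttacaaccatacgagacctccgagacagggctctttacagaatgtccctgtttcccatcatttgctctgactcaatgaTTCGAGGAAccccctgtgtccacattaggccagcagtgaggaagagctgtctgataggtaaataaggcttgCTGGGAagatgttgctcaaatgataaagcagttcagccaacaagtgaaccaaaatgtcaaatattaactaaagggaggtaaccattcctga
CTGGGA was found once in each window, and TTCNNNGAA in those of Fga and Fgb. Among 32851 promoter windows of this length, 27.0% held CTGGGA on either strand and 7.02% held TTCNNNGAA. A match describes the letters and was not tested as a binding site. A part of interleukin-6 signalling in these values was not tested, and its gene Il6 lay below the level filter.

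Of 21 tested genes of tubular injury and dedifferentiation, 20 had a higher value on the high side, where 58.1% of all genes tested did. Their median difference was 0.71, against 0.03 over all genes, and 0.44 without losartan mouse 3. In the slope fit 17 rose and 0 fell, where 11.0% and 2.91% of all genes did, and 1 rose without losartan mouse 3, where 0.192% of all genes did. Lcn2 and Krt19 are 2 of the 20 and of the 17. Vcam1, the adhesion molecule of inflamed endothelium and failed-repair tubule, had 10.57, 9.67, 8.41, 7.84 and 8.73 against 7.76, 7.31, 5.90, 6.82 and 6.81. No low mouse reached the high side, by a margin of 0.08 between aliskiren mouse 2 and losartan mouse 1, and the difference of 2.17 (SE 0.53) was 1.65 without losartan mouse 3. Annexin and S100 genes, which encode calcium-binding membrane and cytoskeletal proteins, had higher values in 9 of 9 cases with a median of 0.93, and 0.60 without losartan mouse 3. Among them Anxa3 differed by 1.38 (SE 0.37) and S100a4 by 0.93 (SE 0.24), both without overlap, or by 0.94 and 0.60 without losartan mouse 3. All 9 rose in the slope fit (11.0% of all genes), and 0 did without losartan mouse 3 (0.192% of all genes).

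Outside the rule for named genes, Ubd and Cd44 were chosen after their values were seen, for the largest differences among the genes whose sides did not overlap. Ubd encodes the ubiquitin-like modifier FAT10, which interferon gamma and TNF induce. It had 9.19, 9.13, 8.42, 8.13 and 8.37 against 7.28, 7.07, 4.64, 6.10 and 5.84. The high mice lay within about 1 unit of each other and the low mice were spread more widely, and losartan mouse 3 hardly exceeded aliskiren mouse 1. Its difference was 2.42 (SE 0.48), or 5.37-fold, and 2.17 without losartan mouse 3. Cd44, the hyaluronan receptor of leukocytes and of regenerating tubule, had 9.48, 8.31, 7.61, 6.82 and 7.75 against 6.30, 6.37, 4.69, 5.92 and 5.15, a difference of 2.33 (SE 0.52).

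**Figure D2:**
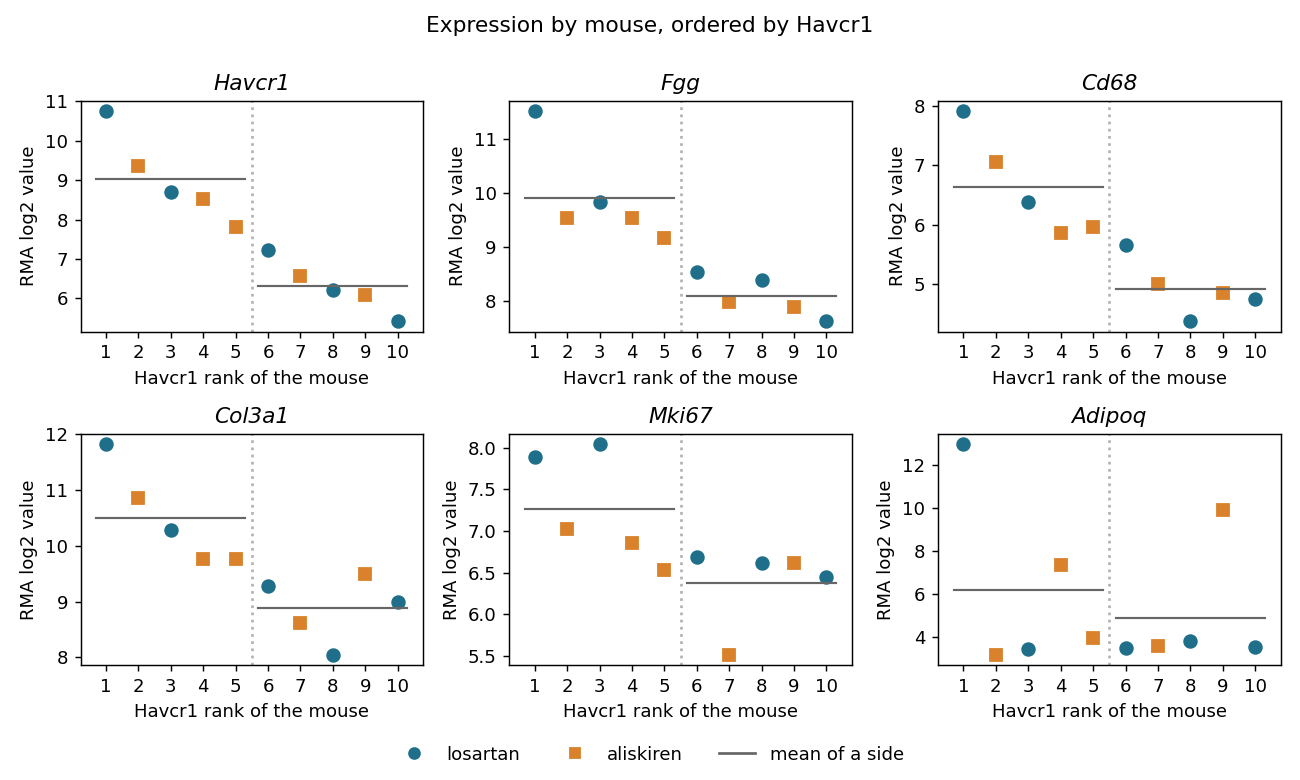
Points give the RMA log2 value (vertical axis) of 6 genes in each mouse, placed by Havcr1 rank (horizontal axis) and marked by drug, with a line at the mean of each side. Fgg and Cd68 separate the sides, Mki67 is highest in the losartan mice of rank 1 and 3, and Adipoq is high in the mice of rank 1, 9 and 4.

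Of 21 tested chemokine and NF-kB target genes, 19 had a higher value on the high side, with a median of 0.73 and of 0.44 without losartan mouse 3, and 8 did not overlap upward (1.60% of all genes). In the other direction 1 did not overlap (0.392% of all genes). This was Cxcl12, a chemokine gene of stromal cells named after its values were seen, at -0.31 (SE 0.12), or -0.15 without losartan mouse 3. The slope fit called 16 higher and 1 lower (11.0% and 2.91% of all genes), and 2 higher without losartan mouse 3 (0.192% of all genes). Ccl5, which draws T cells and monocytes, had 8.03, 7.36, 7.39, 7.05 and 7.15 against 6.85, 6.38, 5.99, 6.24 and 6.15. The sides were 0.20 apart, and the difference was 1.12 (SE 0.19), or 0.94 without losartan mouse 3. Ccl2, the main monocyte attractant, had 7.99, 7.14, 6.02, 5.84 and 6.29 against 5.52, 5.19, 5.50, 4.90 and 5.27, a difference of 1.48 (SE 0.36). Losartan mouse 3 and aliskiren mouse 1 were clear of all others for Ccl2. Icam1, the leukocyte adhesion receptor, differed by 0.82 (SE 0.19) and Ltb, a lymphotoxin subunit gene, by 0.75 (SE 0.14), both without overlap.

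The interferon-induced chemokine genes Cxcl10 and Cxcl11 encode ligands of CXCR3, a receptor of activated T cells. Cxcl10 had 7.42, 7.07, 6.59, 7.06 and 7.05 against 6.16, 6.42, 6.22, 6.37 and 6.10. Cxcl11 had 7.74, 7.57, 7.36, 7.61 and 7.50 against 7.14, 7.03, 6.63, 6.42 and 6.73. Neither gene overlapped between the sides, and the differences were 0.75 (SE 0.13) and 0.77 (SE 0.14), or 0.57 and 0.72 without losartan mouse 3. The 250 bases before the start of Cxcl10 (RefSeq, GRCm38.p6, chr5:92348890-92349139, minus strand, 5′ to 3′ on the strand of the gene) are shown as the example of an interferon target, with GAAANNGAA, an interferon response motif, in capitals, searched on both strands.
Cxcl10: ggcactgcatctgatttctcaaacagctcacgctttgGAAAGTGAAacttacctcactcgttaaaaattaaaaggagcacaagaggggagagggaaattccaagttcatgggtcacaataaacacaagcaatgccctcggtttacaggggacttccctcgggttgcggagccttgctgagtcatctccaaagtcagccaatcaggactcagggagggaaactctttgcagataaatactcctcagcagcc
The motif occurred once, from 213 to 205 bases before the start. Of the 32851 windows 7.13% held it, and a match was not tested as a binding site.

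All 16 tested interferon-stimulated genes had a higher value on the high side, with a median of 0.59, and 0.51 without losartan mouse 3. Gbp3, a guanylate-binding protein gene, had 9.13, 8.22, 8.39, 8.40 and 8.22 against 7.53, 7.68, 7.07, 7.60 and 7.85. The sides did not overlap, and the difference was 0.96 (SE 0.20). Gbp2 of the same family differed by 1.25 (SE 0.30) without overlap, and Gbp7 by 0.71 (SE 0.13), where losartan mouse 5 reached 9.00 on the low side. In the slope fit 8 of the 16 rose (11.0% of all genes), and 0 did without losartan mouse 3 (0.192% of all genes). All 6 tested genes of MHC class II, which presents antigen to helper T cells, had a higher value, with a median of 0.99, and 0.74 without losartan mouse 3. All 6 rose in the slope fit (11.0% of all genes), but 0 without losartan mouse 3 (0.192% of all genes). Ciita, the master regulator of the class II genes, had 6.28, 5.73, 6.17, 6.01 and 5.49 against 5.07, 5.00, 5.04, 5.20 and 5.53. Only losartan mouse 5, the mouse with the least Havcr1, crossed into the high side. The class II gene H2-Aa differed by 1.31 (SE 0.37) and H2-Eb1 by 0.71 (SE 0.17).

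Macrophage and myeloid genes had the largest median of all lists with at least 3 tested genes. Of 25 tested, 23 had a higher value on the high side, the median was 1.21, and 0.87 without losartan mouse 3, and 11 did not overlap (1.60% of all genes). The slope fit called 21 higher and 1 lower (11.0% and 2.91% of all genes), and 2 higher without losartan mouse 3 (0.192% of all genes). In whole cortex, more cells of a type and more RNA per cell cannot be told apart. Cd68, the lysosomal marker of macrophages, had 7.92, 7.05, 6.38, 5.87 and 5.97 against 5.66, 5.01, 4.38, 4.85 and 4.75. Its values followed the Havcr1 order closely, and the difference was 1.79 (SE 0.38), or 3.47-fold, and 1.40 without losartan mouse 3. Cd14, the lipopolysaccharide co-receptor, had 9.86, 8.59, 8.12, 7.67 and 7.66 against 7.40, 7.07, 6.03, 6.51 and 6.43. Its difference was 1.77 (SE 0.42). Aif1, an actin-binding protein of macrophages, differed by 1.03 (SE 0.25), and Lcp1, the leukocyte plastin, by 0.87 (SE 0.15) without overlap. The list mean ran from 7.29 to 8.86 on the high side and from 6.22 to 7.26 on the low side. Losartan mouse 4, of rank 8, had the lowest mean of all.

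Lymphocyte markers were mostly too dim to test. Of 12 T and NK cell genes 2 were tested, and both had a lower value on the high side, with Cd4, the helper T cell co-receptor, at -0.28 (SE 0.08). Of 10 B and plasma cell genes 4 were tested, 2 with a higher and 2 with a lower value. Without losartan mouse 3 all 4 had a higher value, and their median went from 0.33 to 0.39. Of 11 tested complement and coagulation genes 9 had a higher value, with a median of 0.44, and 0.34 without losartan mouse 3. Cfi, the complement factor I gene, had 9.79, 8.14, 7.05, 7.19 and 7.31 against 6.62, 6.71, 6.45, 6.47 and 6.13. There was no overlap, but the difference of 1.49 (SE 0.47) fell to 0.84 without losartan mouse 3. C3, Spp1 and Ren1 were not analysed here.

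Matrix genes had higher values on the high side without exception, and their size leaned on losartan mouse 3. All 29 tested collagen and matrix genes were higher, with a median of 0.77, which was 0.44 without losartan mouse 3. Of them 3 did not overlap (1.60% of all genes). Col3a1, the fibrillar collagen of interstitial fibrosis, had 11.82, 10.86, 10.29, 9.77 and 9.77 against 9.28, 8.63, 8.05, 9.50 and 9.00. Aliskiren mouse 3, of rank 9, came within 0.27 of the high side. The difference was 1.68 (SE 0.42), or 3.19-fold, and 1.24 without losartan mouse 3. Col1a1, the other main fibrillar collagen, had 8.51, 7.23, 6.95, 6.21 and 6.84 against 5.91, 5.86, 5.63, 6.31 and 5.93, and the sides overlapped through aliskiren mice 2 and 3. Its difference of 1.29 (SE 0.35) was 0.85 without losartan mouse 3. Fn1, the fibronectin gene, differed by 1.05 (SE 0.33), or 0.66 without losartan mouse 3, and Col6a3 by 0.85 (SE 0.20). In the slope fit 21 of the 29 rose (11.0% of all genes), and 0 did without losartan mouse 3 (0.192% of all genes).

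Fibroblast and mural cell genes had higher values in 10 of 10 cases, with a median of 0.62 that was 0.27 without losartan mouse 3. Acta2, the smooth muscle actin of myofibroblasts and vessels, had 10.98 in losartan mouse 3, 8.90 to 9.44 in the other high mice and 8.67 to 9.26 in the low mice. Its difference fell from 0.73 (SE 0.32) to 0.31 without losartan mouse 3. Of 15 TGF-beta and BMP signalling genes 11 had a higher value, with a median of 0.19, and 0.06 without losartan mouse 3. Tgfb1, the growth factor at the head of this pathway, lay below the level filter, with 5.02 to 5.32 on the high side and 4.75 to 4.91 on the low side. Ltbp2, a matrix protein of the latent TGF-beta binding protein family, had 8.36, 7.12, 6.54, 5.59 and 5.78 against 5.45, 5.12, 4.71, 5.21 and 4.17. The difference was 1.83 (SE 0.49), or 1.29 without losartan mouse 3. Of 12 tested metalloproteinase and inhibitor genes 9 had a higher value, with a median of 0.59. Without losartan mouse 3 all 12 had a higher value, and the median was 0.44. Timp1, the inhibitor that rises in fibrotic kidney, had 8.82, 7.29, 6.63, 6.02 and 5.69 against 5.60, 5.74, 5.34, 5.49 and 4.78, a difference of 1.60 (SE 0.51), or 0.98 without losartan mouse 3. The macrophage elastase gene Mmp12 differed by 1.75 (SE 0.47), or 1.25 without losartan mouse 3, and the membrane protease gene Mmp14 by 0.61 (SE 0.14).

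**Figure D3:**
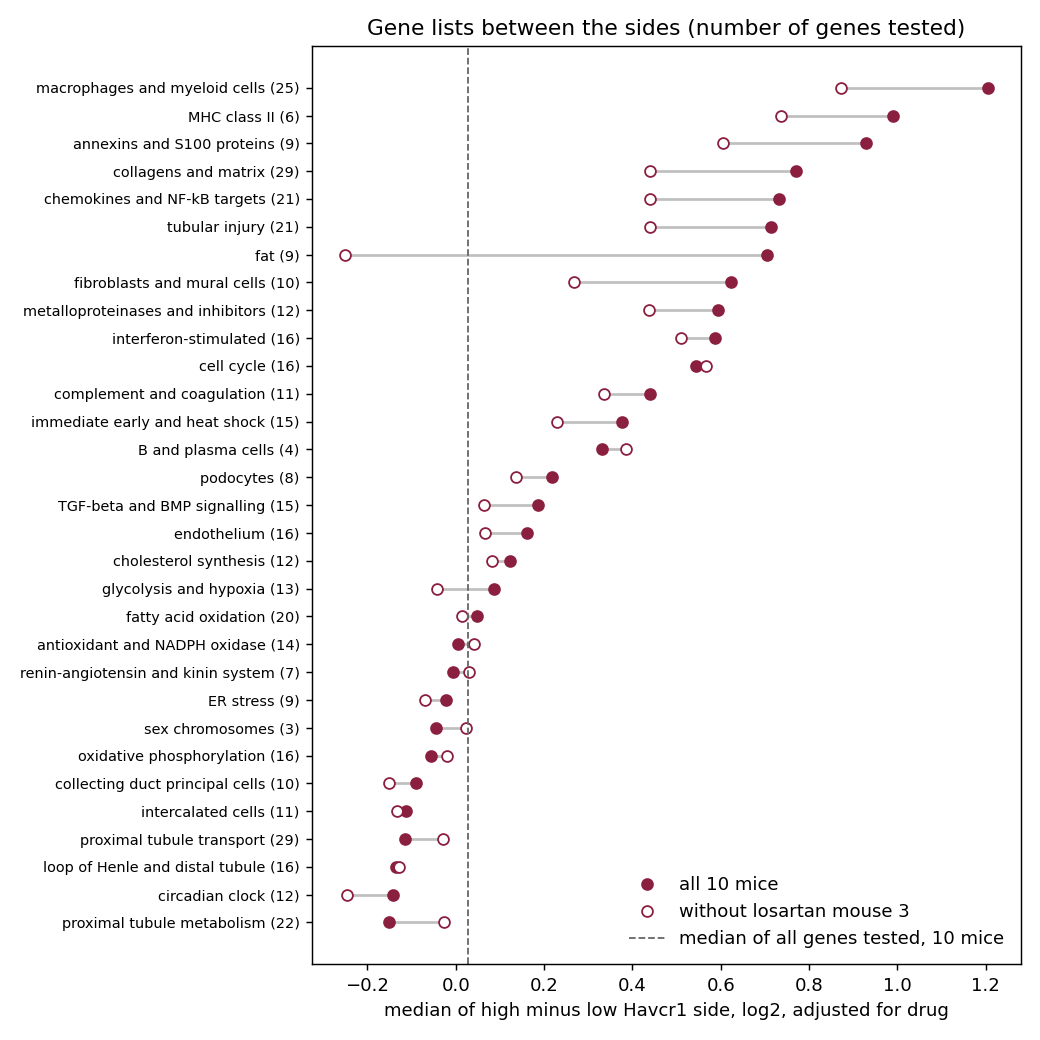
Filled points give the median high minus low difference (horizontal axis, log2, adjusted for drug) of each gene list with at least 3 tested genes (vertical axis), open points the same without losartan mouse 3, and the dashed line the median of all genes. Macrophage genes lie at 1.21 and 0.87, cell cycle genes at 0.54 and 0.57, and fat genes go from 0.71 to -0.25.

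Of 16 tested cell cycle genes, 15 had a higher value on the high side, with a median of 0.54, and 0.57 without losartan mouse 3. In the slope fit 7 rose (11.0% of all genes), and 0 did without losartan mouse 3 (0.192% of all genes). Mki67, the proliferation antigen Ki-67, had 7.89, 7.02, 8.04, 6.86 and 6.54 against 6.69, 5.52, 6.62, 6.61 and 6.45. The highest mouse was losartan mouse 2, and aliskiren mouse 5 fell among the low mice. The difference was 1.06 (SE 0.21), and 1.01 without losartan mouse 3. Cdk1, the kinase that starts mitosis, had 7.19, 6.40, 7.30, 6.33 and 6.09 against 6.36, 5.59, 6.21, 5.90 and 6.22. Within each drug the high mice lay above the low mice for Cdk1, and the mean gap was 0.98 with losartan and 0.53 with aliskiren. With all mice its difference was 0.76 (SE 0.11). Top2a, the topoisomerase of dividing cells, differed by 1.09 (SE 0.24).

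Some of these genes were called when a low mouse was left out. Leaving out any 1 of the other mice called 0 genes between the sides. Without aliskiren mouse 3, which has high fat transcripts, 3 of 11485 genes passed between the sides. All 3 belong to mitosis: Mki67 at 1.34 (limma adjusted p = 0.00653), Cenpf at 1.04 (0.00264) and Cdk1 at 0.87 (0.0469). Cenpf, a kinetochore protein gene, was named after its values were seen. In the same fit Mki67 and Cenpf were also lower with aliskiren than with losartan, by -1.12 and -0.95 (limma adjusted p = 0.0277 and 0.00568). With all mice none of these passed.

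Like every other gene tested, the transport genes of the nephron did not pass the test between the sides. The proximal tubule, which makes up most of the cortex, had 29 transport genes tested, of which 24 had a lower value on the high side, but the median was -0.11, and -0.03 without losartan mouse 3, when 13 of 29 had a higher value. Of the 29, 2 rose and 1 fell in the slope fit (11.0% and 2.91% of all genes), and 0 rose without losartan mouse 3 (0.192% of all genes). Slc34a1, the phosphate transporter NaPi-IIa, had 12.65 in losartan mouse 3, 13.14 to 13.23 in the other high mice and 13.15 to 13.34 in the low mice. The difference of -0.19 (SE 0.11) was -0.05 without losartan mouse 3. The endocytic receptor genes Lrp2 (megalin) and Cubn (cubilin) differed by -0.18 (SE 0.12) and -0.07 (SE 0.10), the glucose transporter gene Slc5a2 by -0.11 (SE 0.17) and the proximal tubule transcription factor gene Hnf4a by -0.12 (SE 0.08). In the same order the values were -0.04, -0.0031, -0.13 and -0.04 without losartan mouse 3. Larger differences with wide errors were those of Slc34a3, the phosphate transporter NaPi-IIc, at -0.51 (SE 0.23), or -0.42 without losartan mouse 3, and Slc22a7, an organic anion transporter gene named after its values were seen, at -0.90 (SE 0.81). Slc22a7 had 6.11 in losartan mouse 3 and 8.81 to 11.62 in the other 9 mice, and its difference turned to 0.08 without losartan mouse 3. In the other direction the sulphate transporter gene Slc13a1 differed by 0.33 (SE 0.11). Proximal tubule metabolism genes had a lower value in 19 of 22 cases, with a median of -0.15, and -0.03 without losartan mouse 3. Kl, which encodes the FGF23 co-receptor Klotho, differed by -0.19 (SE 0.11), and by -0.09 without losartan mouse 3.

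Lists of energy metabolism had medians close to that of all genes. Fatty acid oxidation genes had a median of 0.05 over 20 genes, and 0.01 without losartan mouse 3, with Ppara, the fatty acid sensing receptor, at -0.07 (SE 0.09) and its coactivator Ppargc1a at -0.18 (SE 0.12). Cyp4a14, a fatty acid hydroxylase that Ppara induces, had 13.32, 10.93, 11.23, 12.67 and 12.06 against 9.82, 9.45, 11.31, 11.28 and 11.58, and its order did not follow Havcr1. Oxidative phosphorylation genes had a lower value in 14 of 16 cases, where 58.1% of all genes had a higher one. Their median was -0.06, and -0.02 without losartan mouse 3, when 3 of 16 had a higher value. Their list means were 13.07 to 13.24 on the high side and 13.21 to 13.26 on the low side.

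Distal segments had small medians. In 1 of their tested genes every high mouse lay below every low mouse (0.392% of all genes). Loop of Henle and distal tubule genes had a lower value in 13 of 16 cases, with a median of -0.13, also -0.13 without losartan mouse 3; their median slope on Havcr1 was -0.03 and, without losartan mouse 3, 0.00075. Pvalb, the calcium-binding parvalbumin of the distal convoluted tubule, had 7.41, 8.27, 8.43, 8.40 and 8.40 against 9.70, 8.95, 9.36, 8.57 and 9.08. The sides did not overlap, and the difference was -0.93 (SE 0.26), or -0.61 without losartan mouse 3. Cldn16, a tight junction gene of the loop of Henle, went the other way by 0.36 (SE 0.13), or 0.40 without losartan mouse 3. Umod, the uromodulin gene, differed by -0.13 (SE 0.17), and by -0.02 without losartan mouse 3. Egf, the growth factor made in the same segments, had 11.27 in losartan mouse 3, and its difference went from -0.47 (SE 0.34) to -0.04 without that mouse. Intercalated cell genes had a lower value in 10 of 11 cases, with a median of -0.11, and the ammonia channel gene Rhbg differed by -0.29 (SE 0.08). Principal cell genes had a median of -0.09 over 10 genes, and -0.15 without losartan mouse 3.

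Glomerular, vascular and renin system lists gave no separation upward. Podocyte genes had a median of 0.22 over 8 genes and endothelial genes of 0.16 over 16, or 0.14 and 0.07 without losartan mouse 3. Renin-angiotensin and kinin genes had a median of -0.01 over 7 genes, and 0.03 without losartan mouse 3. Agt, the angiotensinogen gene, differed by 0.49 (SE 0.27). Ace, the converting enzyme gene, stood at 7.52 in losartan mouse 3 and at 8.32 to 8.90 in all others, and its difference turned from -0.15 (SE 0.22) to 0.14 without that mouse. Klk1, the renal kallikrein gene, differed by -0.16 (SE 0.06) without overlap.

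The remaining lists differed in direction. Of 15 immediate early and heat shock genes 12 had a higher value, where 58.1% of all genes did. Their median was 0.38, and 0.23 without losartan mouse 3. The median was 0.12 and 0.08 for 12 genes of cholesterol synthesis, with and without losartan mouse 3. In the same order it was 0.09 and -0.04 for 13 of glycolysis and hypoxia, and 0.01 and 0.04 for 14 antioxidant genes. For 9 genes of ER stress it was -0.02 and -0.07, and for 12 of the circadian clock -0.14 and -0.25, in the same order. Among them Pfkp, a phosphofructokinase gene of glycolysis, had 10.62, 9.87, 9.93, 10.01 and 9.50 against 9.14, 9.43, 9.29, 9.35 and 9.05. The sides did not overlap, and the difference was 0.76 (SE 0.18). Dusp1, a phosphatase gene that glucocorticoids and stress induce, went the other way by -0.75 (SE 0.23), also -0.78 without losartan mouse 3. The 3 tested sex-linked genes had list means of 7.95 to 8.27 over the 10 mice.

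**Figure D4:**
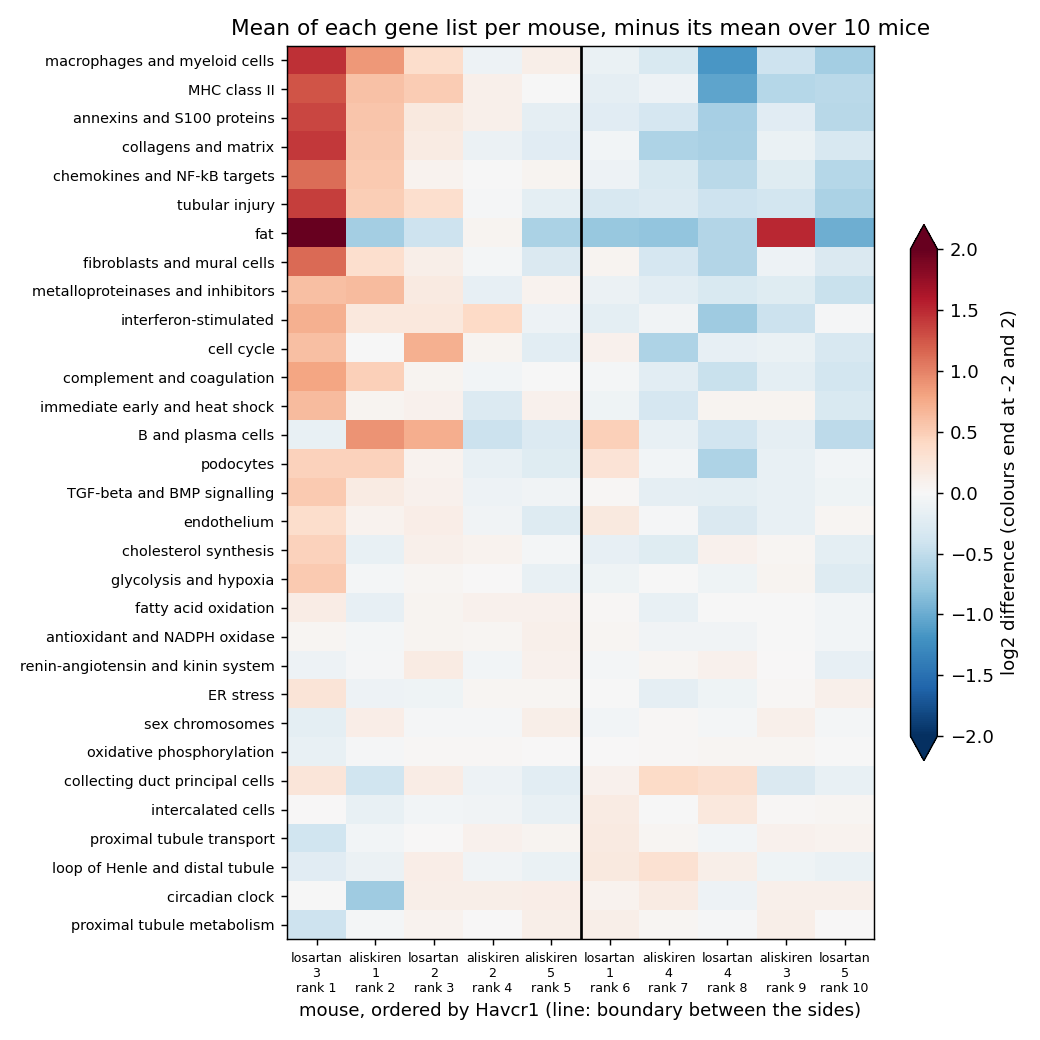
Colours give the mean of each gene list in each mouse minus its mean over 10 mice (log2), with mice ordered by Havcr1 rank (horizontal axis) and lists by their median difference (vertical axis). Myeloid, matrix and injury lists are highest in losartan mouse 3 and below their mean in every low mouse, but aliskiren mouse 2 of the high side is below the mean in all of them too and aliskiren mouse 5 in the matrix and injury lists, while fat genes are high in the mice of rank 1 and 9.

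Among the 12 genes of smallest p with a lower value on the high side, Bhmt, a methyltransferase gene of betaine metabolism, had 5.76, 6.21, 6.62, 6.24 and 6.34 against 7.23, 7.07, 6.64, 6.95 and 6.71. The sides were separated by 0.02 only, and the difference was -0.71 (SE 0.17), or -0.55 without losartan mouse 3. The other 11 differed by -0.22 to -0.46, among them Foxm1, a transcription factor of the cell cycle, at -0.36 (SE 0.08), Dbh, the noradrenaline-forming enzyme gene, at -0.32 (SE 0.08) and Fbxo41 at -0.34 (SE 0.06). The 45 genes without overlap in this direction had a median level of 6.76 and a median difference of -0.25, and the 184 in the other direction had a median level of 7.52 and a median difference of 0.60. Losartan mouse 3 was the lowest mouse in 34 of the 45 and the highest in 150 of the 184. The 12 genes of smallest p that were higher also held 1700016C15Rik, a gene of unnamed function, which had 9.54, 8.98, 9.10, 8.92 and 8.59 against 8.38, 8.19, 8.29, 8.20 and 8.15. Its low side was narrow and apart from the high side, and the difference was 0.84 (SE 0.12). Dpysl3, a cytoskeletal protein gene known from growing axons, had 9.17, 8.54, 7.95, 7.43 and 7.59 against 6.43, 6.87, 6.34, 6.60 and 6.03, a difference of 1.71 (SE 0.33).

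The drugs did not differ past the threshold when the side was held fixed. With the side as a term, 0 of 11485 genes were called between aliskiren and losartan (limma, lowest adjusted p 0.703) and 756 (6.58%) had an unadjusted p under 0.05. The gene of smallest p was Cdk1, at 6.66 ± 0.54 (SD, n = 5) in the losartan mice and 6.06 ± 0.33 in the aliskiren mice, and aliskiren minus losartan came to -0.75 (SE 0.11) given the side. Scg5, which encodes a neuroendocrine chaperone, differed by -0.80 (SE 0.15), and Scnn1a, which encodes a subunit of the sodium channel of the collecting duct, by -0.37 (SE 0.07). Gcnt2, a glycosyltransferase gene, differed by 0.48 (SE 0.10) in the other direction.

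Whether the high and low mice differed by the same amount with each drug could be tested only over 2 and 3 mice per cell. The interaction called 0 of 11485 genes (limma, lowest adjusted p 0.345), and 907 (7.90%) had an unadjusted p under 0.05. The high side of the losartan mice held losartan mouse 3. The high minus low gap was 2.49 with losartan and 1.48 with aliskiren for Fgg, and 2.28 and 1.07 for Col3a1. For Cxcl11 it was 0.72 and 0.83, and for Cyp4a14 1.37 and 1.52.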

How the data were processed

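The authors deposited log2 expression values. Per the submitters' processing notes they used RMA, a method that corrects background, normalizes by quantiles and summarises probes, and the software Affymetrix Expression Console (1.1); per the labels each array took 100 ng of total RNA from renal cortex. Of 45037 probe sets that are no controls, 34945 carried 1 gene symbol, 932 several and 9160 none; symbols were updated through RefSeq for 34741. For each gene the probe set of highest mean was kept, and genes with a mean under 5.53, the median of these probe sets, were left out of the tests. The fits used limma 3.58.1 in R 4.3.3 (lmFit, eBayes, 2-sided) with side and drug as terms and Benjamini-Hochberg adjustment at 0.05 over 11485 genes, Havcr1 left out. "Higher value" and "lower value" give the sign of the fitted difference.

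The rule, the gene lists and the genes named were chosen with earlier results of these data known. The genes named were the 12 of smallest p in each direction (since none passed), up to 4 of smallest p in each list, a set of kidney readouts and the 5 of smallest p in each direction between drugs; Ubd, Cd44, Cenpf, Cxcl12 and Slc22a7 were added after their values were seen. On simulated data with these arrays' spread, the side fit recovered 55 of 67 genes changed 1.5-fold, 60 of 67 changed 2-fold and 63 of 66 changed 3-fold, with 8 of 11285 unchanged genes called. The changed genes were picked at random, and noise was drawn independently for each gene with no outlying mouse. Among the measured genes 119 differed at least 2-fold and 0 were called, so the simulated recovery does not carry over to them. Alternatives left out mice or changed the filter, probe set choice, scaling, variance model, weights, terms or threshold; the slopes on rank, with the fat covariate and without the top mice were chosen after seeing the data. The number of arrays limits the precision.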

Additional observations from a re-analysis of the deposited data

Results flagged for a closer look

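In the 104 genes open to naming, each side of 5 mice was checked for 1 mouse far from the other 4, which chance alone marks in about 1 of 20 groups, and 17 of 208 groups were marked. Of these, 12 were losartan mouse 3 on the high side. It stood above the other high mice for Fgg (11.53), S100a4 (8.17), Acta2 (10.98), Gbp3 (9.13) and the replication gene Mcm6 (7.62). It stood below them for Pvalb (7.41), Slc34a1 (12.65), Kl (11.43), Ace (7.52), Gcnt2 (9.13), Cxcl12 (10.22) and Slc22a7 (6.11). On the low side aliskiren mouse 4 stood below the others for the chemokine gene Cx3cl1 (7.37), Rhbg (8.45) and Mki67 (5.52), and aliskiren mouse 3 above them for Adipoq (9.90). On the high side aliskiren mouse 1 stood above the others for the clock gene Arntl (9.03).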

How the results depend on the processing

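Between the sides, leaving out each mouse in turn gave 0 to 3 genes higher and 0 to 0 lower, the 3 without aliskiren mouse 3. The slope on the Havcr1 level gave 1258 higher and 334 lower, the rank slope 599 and 108, and the level slope with the fat covariate 407 and 39; without the mouse of rank 1 the level slope gave 22 higher, and without ranks 1 and 2 it gave 1. For the drugs, leaving out each mouse gave 0 to 2 genes lower (2 without aliskiren mouse 3). For the interaction it gave 0 to 148 higher and 0 to 224 lower, the upper ends without losartan mouse 2, which leaves losartan mouse 3 alone as the high losartan mouse, assumed to vary like the other groups. Without aliskiren mouse 3, aliskiren mouse 4 was the only low aliskiren mouse. The cause of these shifts was not tested. Mouse number as a replicate block gave 0 higher and 0 lower in each comparison (lowest limma adjusted p between the sides 0.0826). Mice of the same number did not deviate together in every pair (correlations -0.061, -0.233, -0.023, 0.419 and 0.234). The labels do not say whether a number links the mice, and so few correlations cannot decide it, so the mice were not paired in the main fits.

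Of 2923 values of 104 genes under alternatives, 17 in 6 genes turned direction, none of them called. Umod turned to 0.019 without ranks 1 and 2, and to slopes of 0.015 without rank 1 and 0.056 without both. Egf turned to slopes of 0.031 and 0.045, Cubn to 0.060 without ranks 1 and 2 and a slope of 0.034, and Slc5a2 to 0.012 without ranks 5 and 6. Ace ran from -0.31 to 0.14 over the fits that left out 1 mouse each, turning without losartan mouse 3, and turned to 0.077 with array weights, 0.17 without ranks 1 and 2, and slopes of 0.030 and 0.051. Slc22a7 ran from -1.50 to 0.081 over the fits that left out 1 mouse each, turning without losartan mouse 3, and turned to 0.012 without ranks 1 and 2 and slopes of 0.13 and 0.11.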

Other observations

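Clock genes set 1 mouse apart. Arntl, which encodes the clock activator BMAL1, had 9.03 in aliskiren mouse 1 and 5.79 to 6.53 in the other 9 mice. Per2, a clock repressor gene that peaks when Arntl is low, had 6.29 in aliskiren mouse 1, 7.46 in losartan mouse 2 and 7.95 to 8.89 in the others. Hlf, a clock output gene of the liver and kidney, had 9.76 in aliskiren mouse 1, but losartan mouse 3 was lower still at 9.60. The mean of the 12 tested clock genes was 7.88 in aliskiren mouse 1 and 8.50 to 8.76 in the other 9. The high minus low difference of Arntl was 0.58 (SE 0.56) and 0.078 without aliskiren mouse 1, and that of Per2 was -0.48 (SE 0.46) and -0.16.

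Antibody genes varied between mice in an order of their own. Ighm, the heavy chain gene of IgM, had 9.75 in losartan mouse 2 and 8.80 in aliskiren mouse 1, and 7.15 to 7.63 in the other 8 mice. Jchain, which encodes the chain that joins secreted IgM and IgA, had 9.88 in aliskiren mouse 1 and 9.81 in losartan mouse 1, on opposite sides, and 5.91 to 8.46 in the others. Among stress genes, Asns, the asparagine synthetase that amino acid shortage induces, had 8.72, 7.24, 6.78, 6.87 and 6.20 in the mice of rank 1 to 5 and 6.35, 5.85, 6.07, 6.53 and 6.25 in those of rank 6 to 10, a difference of 1.05 (SE 0.38) that was 0.57 without losartan mouse 3. Egr1, an immediate early transcription factor gene, had 9.41, 8.49, 8.82, 7.71 and 8.36 against 7.08, 7.20, 7.27, 8.65 and 7.68, and aliskiren mouse 3 of the low side lay above 3 of the 5 high mice.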
